A study of Homo sapiens with 2 samples.

Results

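The 9 genes described here encode liver enzymes that dispose of amino acid nitrogen or break down tyrosine and tryptophan. They were chosen by name, from known function, with earlier results of these data known: CPS1, OTC, ASS1, ASL and ARG1 of the urea cycle, and TAT, TDO2, HPD and HGD of tyrosine and tryptophan catabolism. They are 9 of the 18417 genes that had a level on both arrays. The arrays measured RNA of HepG2, a human hepatoma cell line, grown in MEM medium. The control group was 1 array of cells for which the labels name no agent. The SiO2-NP group was 1 array of cells exposed to amorphous silica nanoparticles at 100 mg/L for 24 h. Both groups were the same line, and the labels name no genetic change in either. Neither group had a replicate, which leaves no error to test a difference against. All differences below are therefore descriptions of this pair of arrays, given without p-values.

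The urea cycle turns toxic ammonia into urea, in steps divided between the mitochondria and the cytosol of the hepatocyte. It is a hallmark of the differentiated liver cell, and HepG2 is known as a line in which the complete cycle is not active because OTC and ARG1 are poorly expressed. Tyrosine is degraded to fumarate and acetoacetate, while tryptophan enters the kynurenine pathway, which can end in the synthesis of NAD. TAT and TDO2 are classical targets of glucocorticoid hormone in liver.

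The sequence upstream of the genes was read from the RefSeq promoter table of GRCh38.p14, in which 7 of the 9 members had an entry; TAT and HGD were the others. CPS1, ASS1 and HPD had several listed starts. The 4 members with a single listed start are shown because they include the 3 dimmest members and hold both AT-rich and GC-rich stretches. Each stretch holds the 250 bases before the annotated start, 5′ to 3′ on the plus strand. Capitals mark every match, on either strand, to 7 motifs: the TATA box (TATAAA), the CCAAT box (CCAAT), the GC box (GGGCGG), the glucocorticoid receptor hexamer (TGTTCT), a loose C/EBP-type site (TTNNGNAA), an HNF4-type site (TGNACTTTG) and the HNF1 hexamer (GTTAAT). No matches overlapped in these 4 stretches.
OTC, chrX:38352354-38352603: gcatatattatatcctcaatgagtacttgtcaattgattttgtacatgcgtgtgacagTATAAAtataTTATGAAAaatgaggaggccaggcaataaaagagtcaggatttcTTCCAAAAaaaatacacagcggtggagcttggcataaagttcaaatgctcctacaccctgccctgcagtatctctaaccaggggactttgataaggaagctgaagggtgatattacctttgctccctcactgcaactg
ARG1, chr6:131572976-131573225: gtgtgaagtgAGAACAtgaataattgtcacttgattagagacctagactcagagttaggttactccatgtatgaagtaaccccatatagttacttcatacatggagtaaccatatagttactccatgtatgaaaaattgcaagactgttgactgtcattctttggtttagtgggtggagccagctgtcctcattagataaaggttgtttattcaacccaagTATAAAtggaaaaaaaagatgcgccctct
TDO2, chr4:155903446-155903695: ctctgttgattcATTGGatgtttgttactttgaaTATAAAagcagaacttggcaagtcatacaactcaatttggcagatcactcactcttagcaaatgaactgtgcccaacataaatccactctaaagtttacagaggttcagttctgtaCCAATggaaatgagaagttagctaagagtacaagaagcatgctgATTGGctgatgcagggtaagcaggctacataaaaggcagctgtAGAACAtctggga
ASL, chr7:66075569-66075818: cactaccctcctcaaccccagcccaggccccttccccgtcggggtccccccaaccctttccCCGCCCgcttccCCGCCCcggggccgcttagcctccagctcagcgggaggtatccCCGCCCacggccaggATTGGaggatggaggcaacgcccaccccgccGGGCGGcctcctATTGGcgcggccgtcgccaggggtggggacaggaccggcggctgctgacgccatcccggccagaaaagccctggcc

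The promoters ranged from AT-rich to GC-rich, with a CPS1 start and an HPD start between the 25th and 75th percentiles of GC content, 46.4% and 68%. Over all 35116 promoter entries the median GC content was 58%, with a median of 11 CpG dinucleotides. OTC had 40.4% GC and 2 CpG, ARG1 37.6% and 1, and TDO2 40% and 0. The 3 CPS1 starts ranged from 33.6% to 48.4%. ASL had 74% GC and 22 CpG, the ASS1 starts 68.4% and 78.8%, and the HPD starts 64.8% and 68.8%. The urea cycle members thus lay on both sides of the median.

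Motif matches depend in part on base content, since the TATA letters are all A and T and the GC box letters all G and C. The shares below are over all entries, not over entries of like GC content. ARG1 carried a TATA box at position -29, counted back from the annotated start. OTC and TDO2 had the same letters farther away, at -192 and -216. The TATA letters occurred in 10.7% of all promoter entries. TDO2 had 3 CCAAT boxes, at -238, -100 and -56, and the glucocorticoid receptor hexamer at -13. ARG1 had that hexamer at -240, and the GC-rich HPD start with 68.8% GC had it at -128. The hexamer occurred in 12.4% of entries and the CCAAT letters in 32.0%. A start of CPS1 had a CCAAT box at -14. ASL had 4 GC boxes and 2 CCAAT boxes, and all ASS1 and HPD starts had a GC box, found in 42.6% of entries. The C/EBP-type letters, present in 33.2%, matched at 2 places in OTC, at -143 in 1 CPS1 start, and at -189 and -129 in another. The HNF4-type and HNF1 letters, in 0.940% and 6.23% of entries, were in none of the member windows. A match is a string of letters and not a measured binding site.

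All 9 enzymes were lower on the SiO2-NP array, by small amounts. Their median log2 difference, SiO2-NP minus control, was -0.098, and the differences ran from -0.41 for OTC to -0.032 for HGD. The median was -0.054 after quantile normalization of the arrays. The share of all genes below the control was 47.6%, and their median difference was 0.0095. In this table the background depended on signal. Among the 9209 genes whose mean reached the median gene mean of 7.26 (the level filter), 59.8% were below the control. Among the 9208 genes under it the share was 35.4%. The 5 members above the filter (CPS1, ASS1, ASL, HPD and HGD) and the 4 under it (OTC, ARG1, TAT and TDO2) were all below. The median differences of these groups were -0.098 and -0.11, beside -0.031 and 0.067 for all genes on the same side of the filter. In bulk RNA, fewer cells with a transcript and less of it per cell cannot be told apart.

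**Figure D1:**
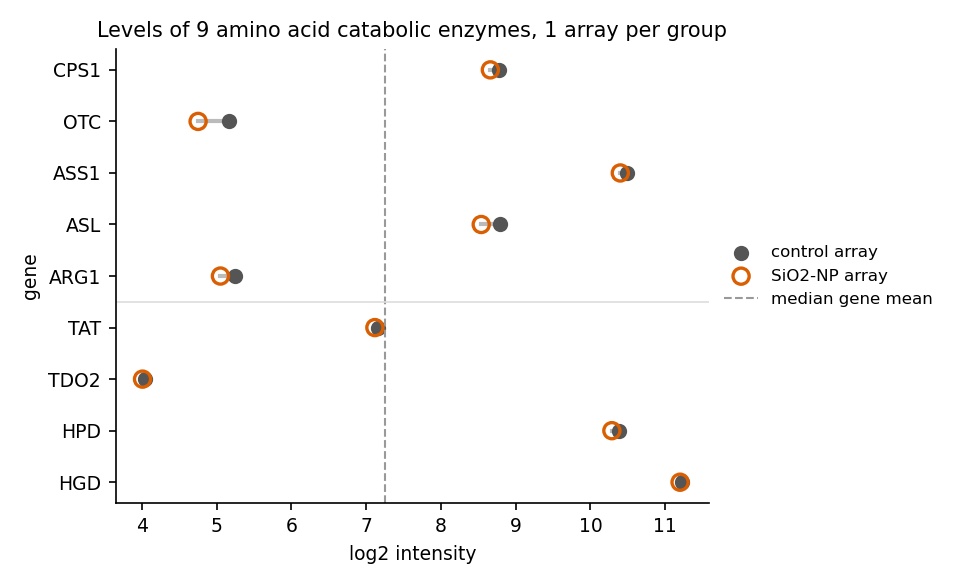
Log2 intensity (horizontal axis) of each of the 9 enzymes on the control array (filled points) and the SiO2-NP array (open points), with the median gene mean of 7.26 as a dashed line. Every open point lies to the left of its filled point, and the gap is widest for OTC, at 5.16 against 4.75.

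The size of the differences was modest. OTC was the only member at least 1.2-fold lower, a threshold of 0.26 on the log2 scale that 6.47% of all genes passed downward. The share was 7.53% of the genes above the level filter and 5.41% of those under it. ASL, at 1.19-fold lower, fell just short of it. No member differed by 1.5-fold, as 0.700% of all genes did in either direction.

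Within the urea cycle, the 5 enzymes had a median difference of -0.19. Over the 3 above the level filter, without the dim OTC and ARG1, the median was -0.12. CPS1 makes carbamoyl phosphate from ammonia in the mitochondrion, the entry step of the cycle. Its log2 intensity was 8.78 in the control and 8.66 after SiO2-NP, which is 1.09-fold lower. Of all genes, 21.2% had a difference as low or lower, and of the genes above the filter 26.5%.

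OTC joins carbamoyl phosphate to ornithine to give citrulline, and its AT-rich promoter is the first of those printed above. Its level was 5.16 in the control and 4.75 after SiO2-NP, 1.33-fold lower. Only 1.77% of all genes, and 1.75% of the genes under the filter, had a difference as low. OTC was dim on both arrays: its control signal lay at percentile 16.5 of all genes and its SiO2-NP signal at 10.7. Differences vary more among dim genes, with an SD across genes of 0.20 under the filter and 0.16 above it. No detection calls were used, so whether its probe measured transcript or background in either array was not tested. Signals of different probes also depend on how well each probe binds, so a percentile describes brightness and does not rank the transcripts.

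ASS1 condenses citrulline with aspartate and brings the second nitrogen into the cycle. It gave a bright signal, 10.49 on the control array and 10.40 on the SiO2-NP array, a 1.06-fold lower level. ASL splits the product into arginine and fumarate. It read 8.79 and 8.54, and 7.26% of all genes, or 8.57% of the genes above the filter, had a difference as low. These enzymes act in succession, and ASL had the larger difference of the pair, -0.25 against -0.087.

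ARG1, the cytosolic arginase that releases urea, read 5.24 in the control and 5.05 after SiO2-NP, 1.14-fold lower. Like OTC it was dim, at percentile 17.4 in the control. Of all genes 12.2%, and of the genes under the filter 9.54%, had a difference as low as that of ARG1. Its mitochondrial counterpart ARG2, named after its value was seen, read 8.91 and 8.83, a difference of -0.073. The mean of ARG2 reached the level filter, and that of ARG1 did not.

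The tyrosine and tryptophan enzymes differed less, with a median of -0.037 over 4 genes. It was -0.063 with centring on a running median by level, and -0.065 over HPD and HGD, the pair above the level filter. TAT, which transfers the amino group of tyrosine, read 7.16 in the control and 7.12 after SiO2-NP. HPD, the dioxygenase that forms homogentisate, read 10.39 and 10.29. HGD opens the ring of homogentisate, and it read 11.23 and 11.20. All 3 lay within 1.08-fold of the control. Of all genes 39.5%, and of the genes above the filter 49.8%, had a difference as low as that of HGD. HPD was the farthest from 0, at -0.098, and 25.6% of all genes, or 32.2% of those above the filter, were as low.

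TDO2, the haem dioxygenase that starts hepatic tryptophan breakdown, read 4.04 in the control and 4.01 after SiO2-NP. Its signal lay at percentile 4.50 of all genes in the control, the dimmest probe of the 9. A difference of -0.035 at that brightness is small beside the SD of 0.20 across dim genes.

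**Figure D2:**
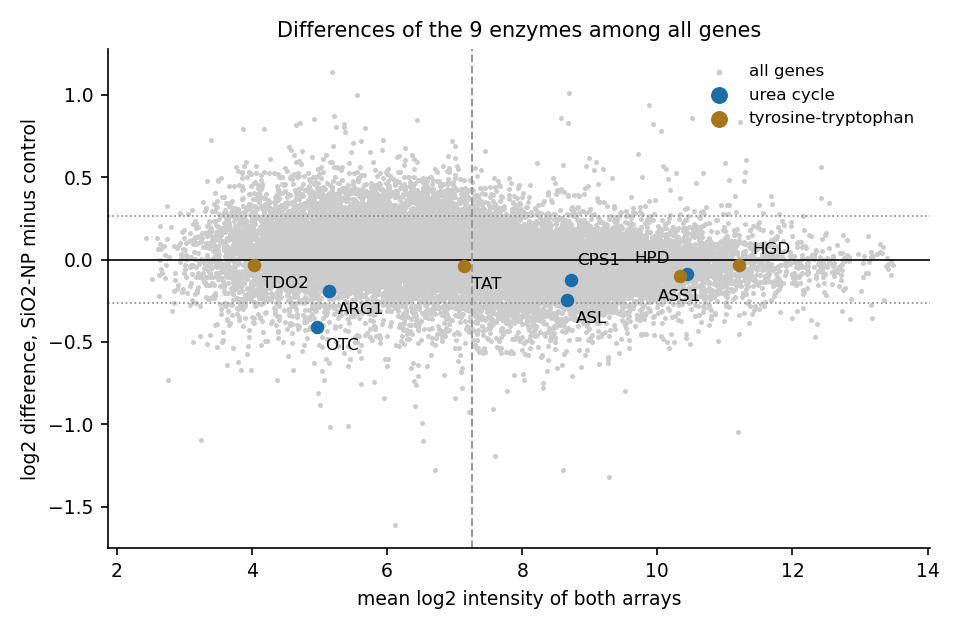
Log2 difference, SiO2-NP minus control, against the mean log2 intensity of both arrays for all 18417 genes (grey) and the 9 enzymes (blue for the urea cycle, brown for tyrosine and tryptophan). Dotted lines mark 1.2-fold and the dashed line the level filter of 7.26; OTC is the only coloured point outside the dotted lines.

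Other scalings of the arrays kept OTC as the member with the largest difference. As the medians above show, dim genes sat slightly above the control and bright genes slightly below it. With the differences centred on a running median of genes of like level, OTC was at -0.47 and ARG1 at -0.27, so that both were past 1.2-fold. The same centring gave -0.20 for ASL, -0.076 for CPS1 and -0.0074 for HGD. After quantile normalization HGD turned to 0.016, and the other 8 members stayed below 0.

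**Figure D3:**
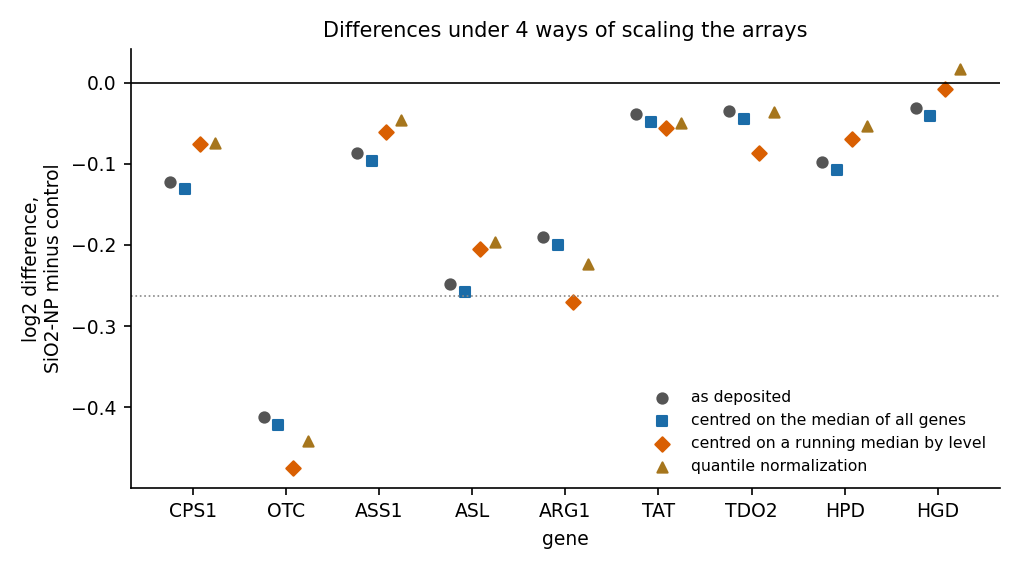
Log2 difference of each enzyme as deposited and under 3 other scalings of the arrays; the dotted line marks 1.2-fold lower. OTC lies between -0.47 and -0.41 in all of them, ARG1 crosses the line only with centring by level, and HGD crosses 0 only with quantile normalization.

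Genes that supply or support the urea cycle were mixed. Of 10 listed genes 8 were measured, 4 below and 4 above the control, with a median of -0.011 and none past 1.2-fold in either direction. SLC25A12, a mitochondrial aspartate-glutamate carrier, differed by -0.16, and CA5A, the mitochondrial carbonic anhydrase that supplies bicarbonate to CPS1, by -0.12. GLUL, the glutamine synthetase that also captures ammonia, differed by 0.13. The citrin carrier SLC25A13, bright at 10.70 in the control, differed by 0.030. The sign of this median turned, to 0.017 with centring by level and 0.027 after quantile normalization.

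Enzymes and carriers that use arginine and ornithine had a median of -0.084, with 9 of 12 below the control and none past 1.2-fold. GATM, which starts creatine synthesis from arginine, differed by -0.23, the proline synthesis enzyme PYCR1 by -0.20 and ODC1, the rate-limiting enzyme of polyamine synthesis, by -0.15. AGMAT, bright at 11.68, differed by -0.079.

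The remaining phenylalanine and tyrosine genes had a median of -0.092, with 6 of 8 measured members below the control. GSTZ1, the isomerase that follows HGD, read 7.04 in the control and 6.74 after SiO2-NP, 1.23-fold lower. GCH1, which starts synthesis of the cofactor tetrahydrobiopterin, differed by -0.27. HPDL, a mitochondrial relative of HPD, went the other way. It read 5.76 and 6.18, 1.33-fold higher, where 8.26% of all genes were at least 1.2-fold higher. The probe of HPDL was under the level filter, where that share was 13.5%. The aspartate aminotransferases GOT2 and GOT1 differed by -0.097 and 0.066.

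The rest of the kynurenine pathway had a median of -0.038, with 8 of 11 members below the control. KYAT3, a kynurenine aminotransferase, read 9.93 in the control and 9.59 after SiO2-NP, 1.27-fold lower. It was the only 1 of the 11 past 1.2-fold. The other aminotransferases AADAT and KYAT1 differed by -0.19 and -0.18. QPRT, which leads to NAD, and the kynureninase KYNU differed by -0.038 and -0.083.

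Catabolic enzymes of other amino acids had a median of -0.12, with 11 of 16 measured members below the control, or 68.8%. Of these 16 genes, 11 were above the level filter, where 59.8% of all genes were below, and the rest under it, where 35.4% were. PRODH2, which oxidises hydroxyproline, differed by -0.33, BCKDHB, a subunit of the branched-chain ketoacid dehydrogenase, by -0.28 and the lysine pathway enzyme ALDH7A1 by -0.27. The proline oxidase PRODH differed by 0.28, and GLDC of the glycine cleavage system by 0.076. Quantile normalization brought the medians nearer to 0, to -0.068 for this list and -0.046 for arginine and ornithine use. For phenylalanine and tyrosine it gave -0.044, and for the kynurenine pathway -0.00012. It moved the background too: the median of all genes went from 0.0095 to 0.022. Above the filter the median of all genes went from -0.031 to 0.012, and under it from 0.067 to 0.038. Over all 5 neighbouring lists together, 38 of 55 measured genes read lower after SiO2-NP, or 69.1%, and the median was -0.079. Of all genes, 47.6% were below the control. Of the 55, 39 were above the level filter, where that share was 59.8%, and the rest under it, where it was 35.4%. The counts of the single lists are to be read beside the same shares. At least 1.2-fold lower were 6 of the 55, against 6.47% of all genes and 7.53% of those above the filter. At least 1.2-fold higher were 2 of the 55, HPDL and PRODH, against 8.26% of all genes. Both were under the filter, where that share was 13.5%, while above it 275 of 9209 genes were as high. With centring by level GCH1, BCKDHB and ALDH7A1, at -0.23, -0.24 and -0.24, fell short of 1.2-fold, as did PRODH at 0.21. GATM passed 1.2-fold with that centring, at -0.31.

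**Figure D4:**
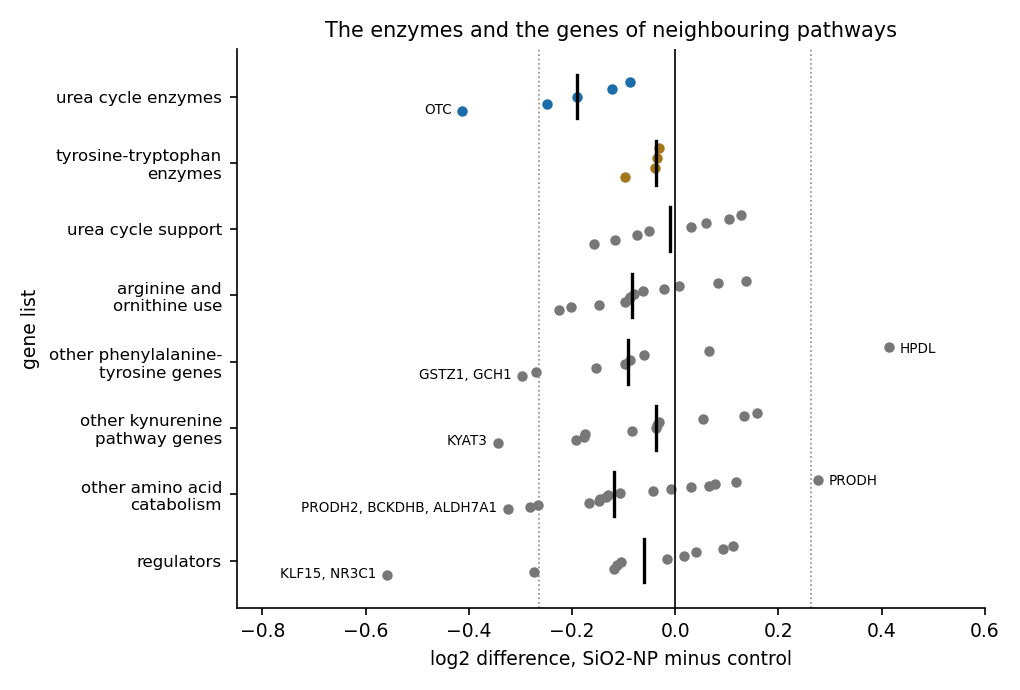
Log2 difference, SiO2-NP minus control, of each measured gene (points) in the 2 groups of enzymes, the 5 neighbouring lists and the regulators, with black bars for list medians and dotted lines at 1.2-fold. The urea cycle enzymes have a median of -0.19, and KLF15 is the point farthest to the left, at -0.56.

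Of 12 regulators known to act on such genes 10 were measured, 6 of them, or 60%, below the control. Of these 10 genes, 9 were above the level filter, where 59.8% of all genes were below. The median of the 10 was -0.061, or -0.013 after quantile normalization. KLF15, a zinc finger factor known to activate genes of amino acid breakdown, read 7.65 in the control and 7.09 after SiO2-NP. It was 1.47-fold lower, and 0.472% of all genes had a difference as low. NR3C1, the glucocorticoid receptor, read 8.69 and 8.41, 1.21-fold lower. Above the filter, 7.53% of genes were at least 1.2-fold lower. The NR3C1 difference of -0.27 was -0.23 with centring by level and -0.22 after quantile normalization, both short of 1.2-fold. CREB1 differed by -0.12 and FOXA1 by 0.039. The members named above as glucocorticoid targets, TAT and TDO2, differed by -0.039 and -0.035. Whether the regulators had a part in the differences of the enzymes was not tested.

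Hepatocyte markers were bright on both arrays. All 9 measured hepatocyte markers were above the level filter, with a median difference of -0.021, and ALB, which encodes albumin, read 13.50 and 13.41. Of the markers of other cells, 2 of 10 for fibroblasts, 3 of 9 for leukocytes, 0 of 10 for endothelium and 0 of 5 for kidney epithelium reached the filter. Their median differences were 0.13, 0.093, 0.0082 and 0.099. All genes under the filter, where most of these markers lay, had a median of 0.067, and those above it -0.031. The brightest were ACTA2 at 9.66 for fibroblasts and LYZ at 13.23 for leukocytes in the control. CD68 and NKG7, the other leukocyte markers that reached the filter, read 9.61 and 7.26 in the control. The defining leukocyte marker PTPRC read 3.65. The reference genes ACTB and GAPDH differed by -0.0042 and 0.096.

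The genes most like OTC, by Euclidean distance over the log2 levels of the 2 arrays, were SCGB3A2 (distance 0.020), ROCK1P1 (0.034) and ADAM20P1 (0.061). They differed by -0.39, -0.39 and -0.41. Such likeness over 2 arrays means a similar brightness and a similar difference only.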

How the data were processed

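RNA of 2 HepG2 cultures was measured on 1 Affymetrix array each. The authors deposited 1 log2 intensity per probe and array. That scale was inferred from their range of 2.08 to 14.4. The submitters' processing notes name RMA and MAS5, without saying which produced the table. The sources used here give no version, setting or genome build. RMA equalises the arrays, which hides any shift common to most transcripts.

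Of 33297 probes, 19460 had exactly 1 gene symbol in the platform annotation and were averaged per gene (18417 genes). The 1754 probes with several symbols were left out, and 12083 had none. All 9 members matched RefSeq by gene identifier. HGD had 2 probes with identical values, counted as 1 measurement, and 8 members had 1 probe. List genes without such a probe, among them GLUD1 and HNF4A, were not analysed here.

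The effect was the log2 difference, SiO2-NP minus control. Without replicates no test, SE or p-value was possible, and having 1 array per group is what limits the precision. The level filter was the median gene mean; it is not a detection call. Counts used 1.2-fold and 1.5-fold. Genes named were all members, the 3 largest differences and 2 brightest genes of each pathway list, some of the brightest markers, ALB, ACTB and GAPDH, and the 3 genes nearest to OTC. ARG2 and PTPRC were named after their values were seen. The members and lists were chosen with earlier results of these data known. Alternative scalings, probe rules, filters, thresholds and summaries were tried. Centring by level was tested on differences shuffled among genes of like level, with known folds and a trend by level added. Quantile normalization was tested on a small made-up example, and the other steps were not tested in this way. The software was pandas 2.3.3 with NumPy 2.4.6 under Python 3.11.15, and matplotlib 3.10.9 for the plots.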

Additional observations from a re-analysis of the deposited data

How the results depend on the processing

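The median difference of the 9 members moved by under 0.05 on the log2 scale, and stayed below 0, under every alternative run: 3 other scalings, other probe rules, both level filters, the mean and each member left out in turn. It was -0.054 after quantile normalization and -0.14 as a mean, and ran from -0.11 to -0.092 with single members left out. The median of the 5 urea cycle enzymes, -0.19, was -0.12 over the 3 above the level filter, without OTC and ARG1. With the filter at the 75th percentile only ASS1 was left, at -0.087. Over genes above the level filter the list for other amino acids had the lower median, -0.13. With single members left out the median of the 5 urea cycle enzymes ran from -0.22 to -0.16. That of the 4 tyrosine and tryptophan enzymes ran from -0.039 to -0.035. The count of members below the control was 5 and 3 under those filters, which is every member left. The count at least 1.2-fold lower was 2 with centring by level, 0 under either filter, and 0 at 1.5-fold or 2-fold, against 1. Of 45 values for single members under the scalings and probe rules, 4 moved by 0.05 or more and 1 changed sign (HGD). The probe rules left every member unchanged, and centring on the median of all genes took the same 0.0095 from each. Only centring by level and quantile normalization could therefore move a value by 0.05. No alternative pseudocount was run, since the table is on a log2 scale. No paired analysis was possible because there is a single array in either group, which also leaves no replicate to omit. Signal limits OTC, ARG1 and TDO2 most, and no difference here can be told from variation between cultures.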
